A study of Mus musculus with 6 samples.

Results

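Granule neurons of the mouse cerebellum were followed through 31 genes used to mark them, from the factors that specify the lineage to the proteins of the mature synapse. The genes were taken from knowledge of the cell type and matched by symbol in GENCODE M21 to the 53715 mouse genes of the table, with granule neuron receptors and potassium channels left out. RNA-seq was performed on the whole cerebellum of 6 male C57BL/6 mice with no engineered allele named, labelled as adult although the methods describe them as young at purchase, with 1 library per mouse. For 2 weeks, 3 mice (low-Mn) ate a purified diet labelled as 0 ppm manganese and 3 mice (normal-Mn) the same kind of diet with 35 ppm. The question was which transcripts of the cerebellum differ after a diet poor in manganese. The study's methods describe RNA from 1 cerebellum per mouse and call the 3 mice per diet biological replicates. A figure legend calls the triplicates technical. Were they technical, the p-values would cover technical spread alone.

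The granule neuron is the small excitatory cell of the cerebellar cortex and the most numerous neuron of the brain. Its precursors leave the rhombic lip and divide in the outer layer of the young cerebellum. They then stop dividing, migrate inward past the Purkinje cells and settle in the granular layer. In the adult, granule neurons receive mossy fiber input and send out parallel fibers, which release glutamate onto Purkinje cells and interneurons. Bulk RNA of the cerebellum holds all of its cells. Fewer granule neurons, less RNA of a gene per granule neuron and less of it from other cells cannot be told apart.

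Library totals ran from 14548336 to 21277469 counts, and 23 of the 31 genes had a mean count of at least 1000. By a chi-square on raw counts, in which the most counted genes weigh most, normal-Mn replicate 2 stood apart from the other normal-Mn libraries. The chi-square per degree of freedom between it and the other 2 was 7.6 and 6.74, against 3.97 for the remaining normal-Mn pair and 3.63 to 4.0 among low-Mn libraries. The labelled tissue was checked by its defining markers, all of which were abundant. Gabra6, which encodes a GABA receptor subunit of these neurons, was at 876 TPM, Cbln3 at 944, and the Purkinje cell genes Pcp2 and Calb1 at 802 and 881. TPM values here are counts per kilobase of exon, scaled to the same sum in each library, and they alone are used to compare levels between genes. CPM values, counts scaled by library size and TMM factors, are used to compare libraries for 1 gene. In normal-Mn replicate 2 the 13 mitochondrially encoded genes summed to 65847 CPM. Their sums were 50081 and 52798 in normal-Mn replicates 1 and 3 and 52077 to 58538 in low-Mn libraries.

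None of the 30 granule neuron genes that could be tested passed an adjusted p of 0.05 between the diets in edgeR, against 0.595% of all 16123 genes tested. At an unadjusted p under 0.05 there were 4 (Neurod1, Tiam1, Zic5 and Uncx), or 13.3%, against 12.1% of all genes. limma-voom called none (0.391% of all genes). DESeq2 with default settings called 1, Neurod1 (0.509% of 26940 genes with a p-value, some left without an adjusted p by independent filtering). The share among genes given an adjusted p was therefore higher. Without that filtering DESeq2 called none (0.345%). In edgeR with no filter on low counts Neurod1 and Tiam1 passed, against 1.57% of all genes. That fit treated the spread between mice as known, which made p-values smaller at like changes. For the choroid plexus gene Kl, p from edgeR was 3.8e-21 there and 9.1e-07 in the main test. In the main test the median log2 fold change (low-Mn relative to normal-Mn) was 0.0074 over the granule neuron genes and -0.0025 over all genes. The fitted value was above 0 for 17 genes and below 0 for 13, and with upper quartile scaling 14 were above 0.

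These genes were measured closely, so the intervals bound how far the diets could have differed. Their standard errors ran from 0.0397 to 0.216 on the log2 scale with a median of 0.0533. The 95% interval of the difference lay inside 1.25-fold in either direction for 27 of 30 genes, as it did for 52.2% of all genes, the exceptions being Barhl1, Meis2 and Uncx. It lay inside 1.5-fold for all but Meis2. The 52.2% covers genes of all counts and is not a like background. A mean count of at least 1000 was reached by 23 of the 31 genes, against 4418 of 16123 tested genes. The median size of the log2 change was 0.0695, against 0.0918 over all genes and 0.0531 over the 4418 genes with a mean count of at least 1000. Of those 4418 genes 1.2% were called, and the smallest called change among them was 0.21 on the log2 scale. The plot of log2 CPM by library shows the spread of the genes on this scale.

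**Figure D1:**
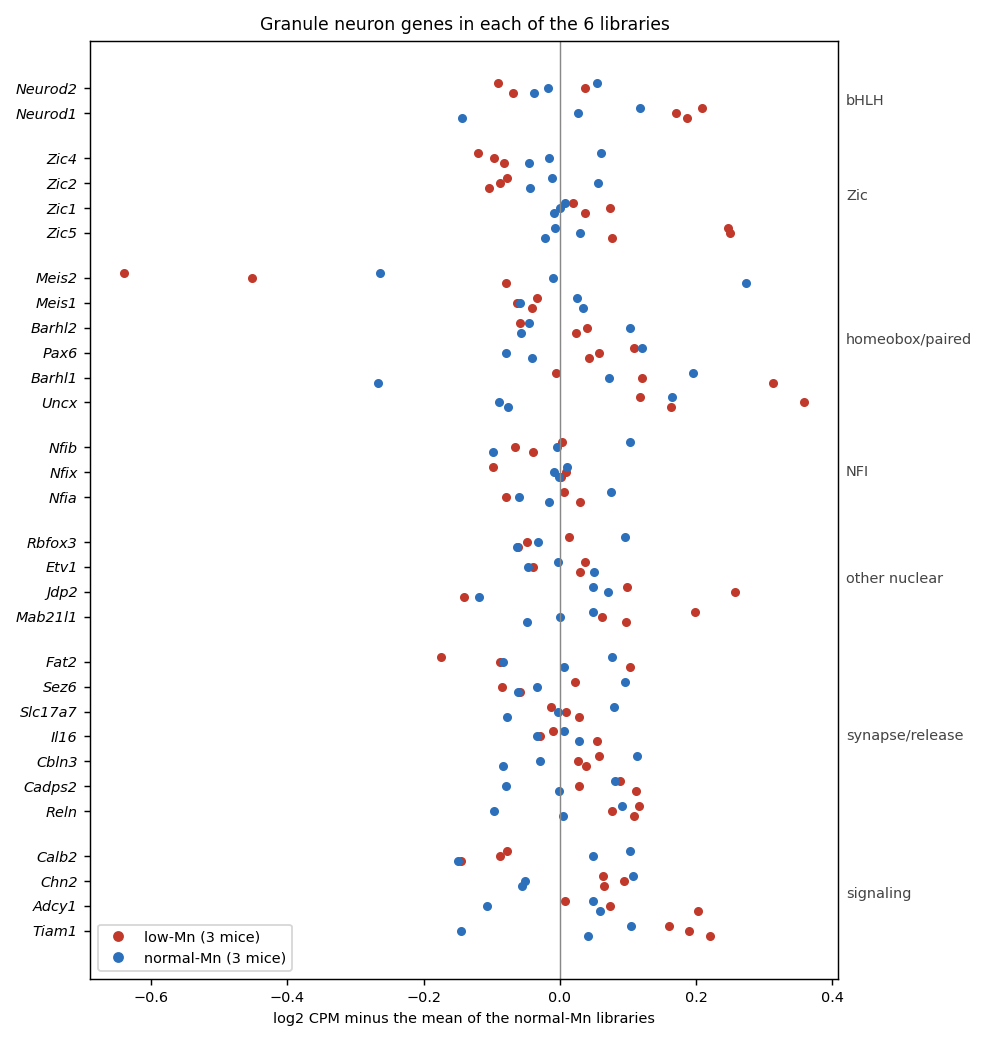
Each point is 1 library, placed on the horizontal axis by its log2 CPM minus the mean of the normal-Mn libraries, with the 30 tested genes in groups by role; low-Mn mice are red and normal-Mn mice blue. Most points lie close to 0, and the widest scatter belongs to Meis2 and Barhl1, which have the lowest counts.

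The basic helix-loop-helix (bHLH) factors drive neuronal differentiation by binding the E box, CANNTG in DNA letters. A match to this pattern on 1 strand is a match on the other, though the middle bases can differ. Neurod1, which granule neurons need to differentiate and survive, lies at chr2:79452521-79456751 on the minus strand of GRCm38. Its CPM was 374, 364 and 368 in low-Mn replicates 1 to 3 and 351, 329 and 293 in normal-Mn replicates 1 to 3. All 3 low-Mn libraries were above all 3 normal-Mn libraries, with the lowest value in normal-Mn replicate 3. The fitted level was 13.6% higher on the low-Mn diet (95% interval 5.28% to 22.7%), a log2 fold change of 0.18 with a standard error of 0.0529 (adjusted p = 0.125 from edgeR). This was the smallest p of the 31 genes and ranked 299 among all genes tested. The difference passed without normal-Mn replicate 1 (0.24, adjusted p = 0.0498 from edgeR) and was smallest without normal-Mn replicate 3 (0.12, adjusted p = 0.377). Of its 50-base exon stretches, 9.66% also occur in overlapping genes, Cerkl among them.

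Neurod2 is a close relative that acts in maturing neurons. Its CPM was 119, 131 and 121 in low-Mn mice and 132, 126 and 124 in normal-Mn mice, so that the diets overlapped. The log2 fold change was -0.04 (95% interval -0.15 to 0.06, adjusted p = 0.806 from edgeR). The log2 ratio of Neurod1 to Neurod2, per exon length, was 1.85, 1.68 and 1.81 in low-Mn libraries and 1.61, 1.59 and 1.44 in normal-Mn libraries. The ranges were apart, with means of 1.78 and 1.55, but the pair was chosen after the values were seen and was not tested. Nhlh1, a factor made briefly as precursors stop dividing, had 3 counts in low-Mn replicate 1 and 0 in the other 5 libraries. A count of 0 allows up to 3 counts, or 0.141 to 0.206 CPM by library, for counting error only, and no fold is given.

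Regulatory sequence was taken from RefSeq (GRCm38.p6) as windows from 250 bases before to 50 bases after a transcript start, and 26 of the 31 genes matched, with Zic2, Calb2, Nfib, Mab21l1 and Sez6 not matched. The windows of Neurod1 and Neurod2 are shown because both factors bind the E box, with each CANNTG in capitals. They lie on the minus strand at chr2:79456587-79456886 and chr11:98329596-98329895 and are written from 5′ to 3′ along the gene.
Neurod1: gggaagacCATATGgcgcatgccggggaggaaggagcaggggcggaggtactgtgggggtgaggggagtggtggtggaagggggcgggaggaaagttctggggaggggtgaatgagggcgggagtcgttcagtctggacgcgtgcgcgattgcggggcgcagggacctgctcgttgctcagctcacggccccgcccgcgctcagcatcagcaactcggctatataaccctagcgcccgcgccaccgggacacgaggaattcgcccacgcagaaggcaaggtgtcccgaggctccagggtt
Neurod2: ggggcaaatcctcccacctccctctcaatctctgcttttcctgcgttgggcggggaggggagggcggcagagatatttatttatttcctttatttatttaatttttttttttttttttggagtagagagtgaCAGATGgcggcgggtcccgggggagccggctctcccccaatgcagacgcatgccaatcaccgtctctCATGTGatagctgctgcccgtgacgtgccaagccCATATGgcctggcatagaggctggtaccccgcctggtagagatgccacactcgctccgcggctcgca
The Neurod1 window holds 1 E box (CATATG), with its first base at -242 from the start, and the Neurod2 window holds 3, of which the one nearest the start is CATATG too. Across all 40 windows of the granule neuron genes, 31 (77.5%) held at least 1 CANNTG, against 72.3% of all 32851 windows, with means of 1.6 and 1.39 per window. A match describes the letters of the window and is no site of binding.

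The 4 Zic genes encode zinc finger factors of the dorsal neural tube that stay on in granule neurons, and they lie in pairs, Zic1 with Zic4 on chromosome 9 and Zic2 with Zic5 on chromosome 14. In CPM, 1 gene of each pair was above the normal-Mn range in every low-Mn library and the other was below it. In TPM this held on chromosome 14 only. On chromosome 9 the diets overlapped in TPM, with Zic1 at 610 in low-Mn replicate 1 and 613 in normal-Mn replicate 1. Zic4 was at 14.4 TPM in low-Mn replicate 3 and 14.2 in normal-Mn replicate 2. None of the 4 passed, and the pattern was noticed after the values were seen. Diets that did not overlap in CPM were found for 7 of the 30 genes (23.3%), against 17.1% of all genes. Higher on the low-Mn diet were Neurod1, Zic1, Zic5, Tiam1 and Mab21l1 (background 8.76%), and lower were Zic2 and Zic4 (background 8.34%).

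Zic5 (chr14:122456795-122465677, minus strand) had a CPM of 67.9, 68.0 and 60.4 in low-Mn mice and 57.0, 58.4 and 56.4 in normal-Mn mice. The low-Mn values were more spread out than the normal-Mn values, with replicate 3 nearest to them. The fitted level was 14.3% higher (95% interval 4.78% to 24.6%, adjusted p = 0.175 from edgeR), with adjusted p from 0.0872 to 0.547 over the alternatives. Zic2 (chr14:122475435-122479852, plus strand) had a CPM of 205, 203 and 201 in low-Mn mice and 214, 225 and 209.6 in normal-Mn mice. Its log2 fold change was -0.09 with a standard error of 0.0441 (adjusted p = 0.423 from edgeR). Per exon length, the log2 ratio of Zic5 to Zic2 ran from -2.50 to -2.34 in low-Mn libraries and from -2.71 to -2.66 in normal-Mn libraries.

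Zic1 (chr9:91358058-91365810, minus strand) was the most abundant of the 4, at 608 TPM. Its CPM was 1008, 1047 and 1020.3 in low-Mn mice and 1000.1, 995 and 989 in normal-Mn mice. The ranges did not overlap, but the step between them was small, with a log2 fold change of 0.04 (95% interval -0.04 to 0.13, adjusted p = 0.726 from edgeR). Zic4 (chr9:91362413-91389348, plus strand) had a CPM of 42.0, 42.7 and 43.1 against 47.6, 45.1 and 44.2, with a fitted log2 difference of -0.10 (adjusted p = 0.552 from edgeR). The exons of Zic4 overlap genes on the other strand, Zic1 among them, over 5.11% of their length, and whether counting used the strand was not stated in the study's methods or labels. The log2 ratio of Zic1 to Zic4 ran from 5.43 to 5.48 in low-Mn mice and from 5.25 to 5.34 in normal-Mn mice. These ratios, like that of the Neurod genes, were among 6 formed after the values were seen and were not tested. For the pairs Nfia with Nfib, Barhl1 with Barhl2 and Meis1 with Meis2, the ranges of the ratio overlapped between the diets.

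The RefSeq windows of Zic1 (chr9:91365719-91366018, minus strand) and Zic5 (chr14:122465609-122465908, minus strand) are shown, again with CANNTG in capitals. They are those of the 2 Zic genes whose CPM was higher in every low-Mn library.
Zic1: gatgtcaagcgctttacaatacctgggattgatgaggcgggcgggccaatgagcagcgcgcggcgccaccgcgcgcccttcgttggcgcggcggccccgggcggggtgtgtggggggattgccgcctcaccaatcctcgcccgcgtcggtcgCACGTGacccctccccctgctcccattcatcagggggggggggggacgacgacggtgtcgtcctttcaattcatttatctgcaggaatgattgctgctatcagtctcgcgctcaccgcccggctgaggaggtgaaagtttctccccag
Zic5: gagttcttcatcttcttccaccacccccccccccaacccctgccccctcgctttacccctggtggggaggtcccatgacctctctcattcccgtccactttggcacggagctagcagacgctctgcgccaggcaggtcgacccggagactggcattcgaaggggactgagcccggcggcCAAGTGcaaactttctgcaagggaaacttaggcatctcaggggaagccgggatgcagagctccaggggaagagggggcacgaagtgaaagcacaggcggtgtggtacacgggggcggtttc
Each holds 1 E box, CACGTG at -98 in Zic1 and CAAGTG at -71 in Zic5, counted from the start to the first base of the box. The window of Zic4, whose CPM was lower in every low-Mn library, is not shown and holds 2, CAAGTG and CACATG. A link between the boxes and the diet was not tested.

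**Figure D2:**
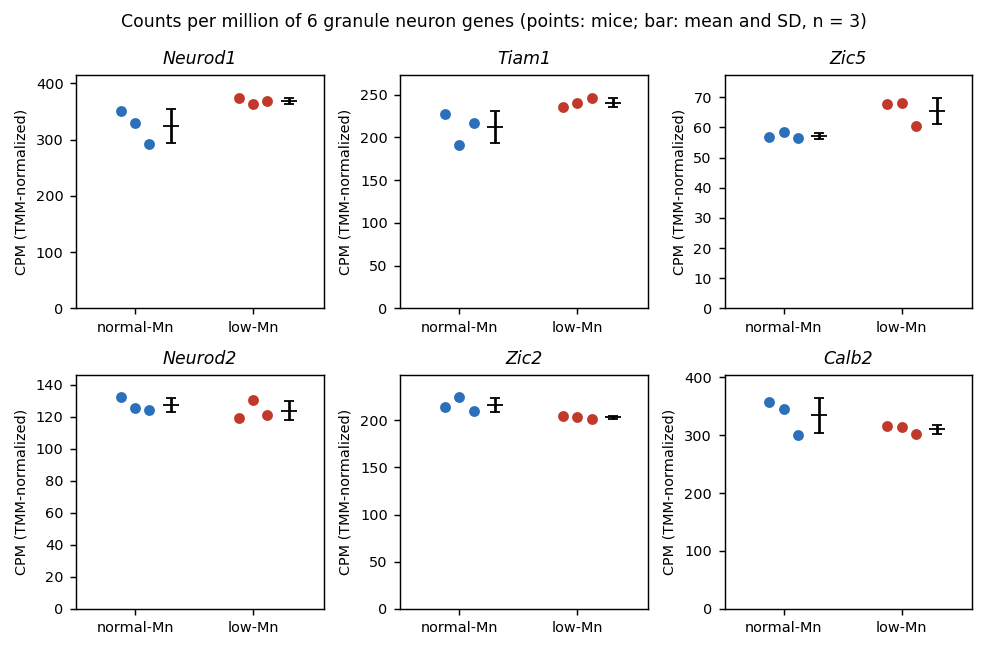
CPM of 6 genes in each mouse, with blue points for normal-Mn and red for low-Mn and a bar for the mean and SD (n = 3), on axes that start at 0. Neurod1, Tiam1 and Zic5 have every low-Mn point above every normal-Mn point and Zic2 every low-Mn point below, while Neurod2 and Calb2 overlap.

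The homeobox and paired factors keep the identity of rhombic lip derivatives. Pax6, a paired and homeobox factor of the whole granule lineage, had 0.07 on the log2 scale (95% interval -0.05 to 0.19, adjusted p = 0.703 from edgeR). Uncx, a homeobox factor, was the only one of the 6 whose 95% interval left out 0. Its CPM was 30.1, 35.6 and 31.1 in low-Mn mice and 31.1, 26.1 and 26.3 in normal-Mn mice, so that normal-Mn replicate 1 lay inside the low-Mn range. It was 15.5% higher (95% interval 1.76% to 31.2%, adjusted p = 0.333 from edgeR), with a log2 fold change of 0.21 that became 0.13 without low-Mn replicate 2.

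The other homeobox genes had intervals that held 0. Barhl1 and Barhl2, a pair of related factors of the lineage, had log2 fold changes of 0.13 (95% interval -0.13 to 0.39) and -0.00 (-0.17 to 0.17). Meis1, a homeobox factor of granule precursors and neurons, had -0.05 (-0.18 to 0.08). Meis2 was the least abundant tested gene, at 1.24 TPM and 52 to 109 counts per library. Its CPM was 3.14, 3.57 and 4.63 in low-Mn mice and 4.07, 4.86 and 5.91 in normal-Mn mice. The log2 fold change was -0.38, but the interval ran from -0.83 to 0.07 (adjusted p = 0.491 from edgeR), and the coefficient of variation between mice was 20.2% in low-Mn mice and 18.6% in normal-Mn mice.

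Nuclear factor one proteins time the late maturation of granule neurons, and none of their 3 genes passed. The log2 fold changes of Nfia, Nfib and Nfix were -0.01, -0.04 and -0.03, with adjusted p from 0.845 to 0.948 in edgeR. Their intervals together ran from -0.14 to 0.10. For Nfix 5 of 6 libraries lay between 362 and 367 CPM, with low-Mn replicate 1 at 340.3.

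Among the other nuclear proteins, Rbfox3, the splicing regulator known as the antigen NeuN, had a log2 fold change of -0.03 and Etv1, an Ets factor of maturing granule neurons, 0.01. Jdp2, a leucine zipper protein of the AP-1 family, had 0.08 with a wider interval of -0.13 to 0.28. Mab21l1, a gene of eye and brain development, had a CPM of 61.0, 55.5 and 56.9 in low-Mn mice and 55.0, 53.2 and 51.5 in normal-Mn mice. The ranges did not overlap, though low-Mn replicate 2 was 55.5 and normal-Mn replicate 1 was 55.0 (log2 difference 0.12, adjusted p = 0.433 from edgeR). Mab21l1 lies within Nbea on the other strand, which covers 39.4% of its exons, so its value is uncertain. The same holds to a lesser degree for Meis1, which shares 17.0% of its 50-base stretches with other genes, Il16, whose exons are overlapped over 17.4%, and Chn2, over 10.6%.

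**Figure D3:**
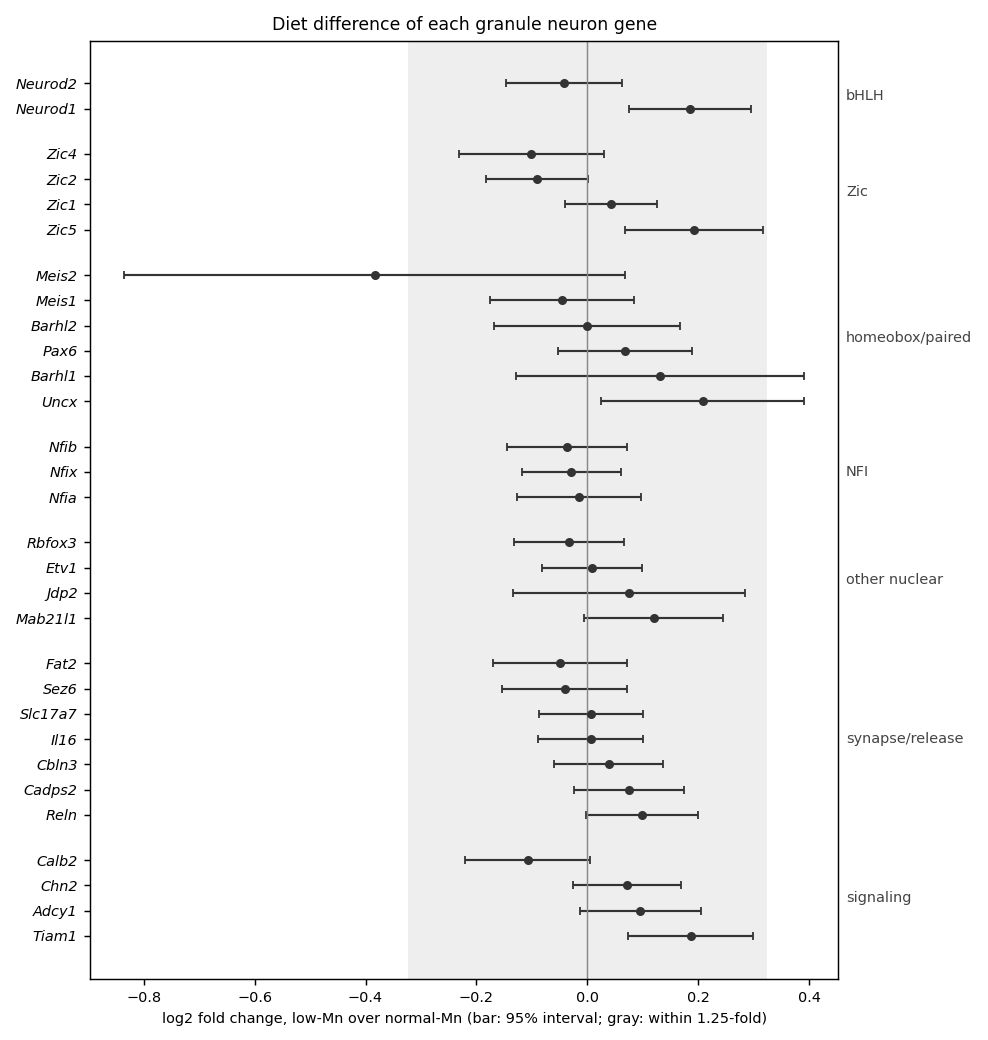
Log2 fold change of each tested gene, low-Mn over normal-Mn, as a point with its 95% interval from edgeR, grouped by role, with the gray band marking changes within 1.25-fold in either direction. The intervals of Neurod1, Zic5, Tiam1 and Uncx leave out 0, and those of Meis2, Barhl1 and Uncx reach beyond the band.

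The genes of the parallel fiber synapse and of release showed no difference that passed in any of 7. Slc17a7 encodes the transporter that loads glutamate into the vesicles of parallel fibers. Its CPM was 471, 479 and 485 in low-Mn mice and 503, 475 and 451 in normal-Mn mice. The low-Mn values lay within the normal-Mn range, and the log2 fold change was 0.01 (95% interval -0.09 to 0.10). Cbln3, a secreted partner of cerebellin 1, was the most abundant of all 31 genes. Its CPM was 1373, 1344 and 1356 in low-Mn mice and 1427, 1294 and 1245 in normal-Mn mice, again with the low-Mn values inside the normal-Mn range (0.04, -0.06 to 0.14).

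Reln, the large secreted protein that guides migration and acts on synapses, had a CPM of 261, 254 and 259.95 in low-Mn mice and 257, 226 and 242 in normal-Mn mice. Only normal-Mn replicate 1 reached the low-Mn range, and the log2 fold change was 0.10 (95% interval -0.00 to 0.20, adjusted p = 0.425 from edgeR). Cadps2, which primes dense-core vesicles for release, had 0.07 (-0.02 to 0.17). Sez6, a membrane protein of dendrites, had -0.04 (-0.15 to 0.07), and Il16, whose neuronal form is a scaffold protein, had 0.01 (-0.09 to 0.10). Fat2, an atypical cadherin of parallel fibers, varied most within the low-Mn diet in this group, from 537 to 651 CPM, against 572 to 639 in normal-Mn mice. Its log2 fold change was -0.05.

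The signaling genes included a pair of opposite action on the small GTPase Rac. Tiam1, which activates Rac at growing neurites and spines, lies at chr16:89787111-90143769 on the minus strand. Its CPM was 236, 241 and 246 in low-Mn mice and 227, 191 and 217 in normal-Mn mice. All low-Mn libraries were above all normal-Mn libraries, and normal-Mn replicate 2 was the lowest. Tiam1 was 13.8% higher (95% interval 5.24% to 23.1%), with a log2 fold change of 0.19 and a standard error of 0.054 (adjusted p = 0.13 from edgeR). Without normal-Mn replicate 2, the library that stood apart by the chi-square on raw counts, the value was 0.12 (adjusted p = 0.464 from edgeR).

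Chn2 encodes beta-chimaerin, which turns Rac off. Normal-Mn replicate 1 lay above the low-Mn range, at 650.3 CPM, and below it were normal-Mn replicates 2 and 3, at 583 and 581, with low-Mn values from 631 to 644. The log2 fold change was 0.07 (95% interval -0.03 to 0.17, adjusted p = 0.573 from edgeR). Adcy1, an adenylyl cyclase stimulated by calcium and calmodulin, had a CPM from 1767 to 2023 in low-Mn mice and from 1631 to 1831 in normal-Mn mice. The diets overlapped (0.09, -0.01 to 0.20). Calb2, the calcium buffer calretinin, had a CPM of 316, 314 and 302 in low-Mn mice and 358, 345 and 301 in normal-Mn mice. Its log2 fold change was -0.11 (95% interval -0.22 to 0.00, adjusted p = 0.43 from edgeR), with normal-Mn replicate 3 below the low-Mn range. Without that library the value was -0.18 (adjusted p = 0.14 from edgeR), and without normal-Mn replicate 1 it was -0.06.

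For these genes the spread between mice was wider on the normal-Mn side, a difference that was not tested. The median coefficient of variation of the 30 genes was 2.94% in low-Mn mice and 5.92% in normal-Mn mice, and it was larger in normal-Mn mice for 20 of them. Over all genes the medians were 7.30% and 7.16%, and 47.8% were more variable in normal-Mn mice. These values cover genes of all counts and are not a like background. Of the 30 tested genes, 12 had their highest CPM in normal-Mn replicate 1 and 0 had their lowest there. Normal-Mn replicates 2 and 3 held the lowest value of 8 and 11 genes and the highest of 2 and 3. The median deviation from the normal-Mn mean, in log2 CPM, was 0.076 in normal-Mn replicate 1, -0.023 in replicate 2 and -0.043 in replicate 3, against 0.010, 0.027 and 0.033 in low-Mn replicates 1 to 3. Without normal-Mn replicate 1 the median log2 fold change of the genes became 0.035, with 21 of 30 above 0 and 1 called, Neurod1 (0.567% of all genes). Without normal-Mn replicate 2 the median was 0.012 and none passed (0.275% of all genes). The low-Mn range of the summed CPM was 9501 to 9865 and the normal-Mn range 9120.3 to 9829.

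The order of the genes by level was led by synaptic and calcium-handling proteins and by Zic1. Cbln3 was first at 944 TPM, ahead of Calb2 at 634 and Zic1 at 608, whose libraries overlapped. Adcy1, Neurod1 and Chn2 followed at 499, 435 and 366, and Slc17a7, Zic2, Rbfox3 and Nfix at 303, 249, 169 and 168. Fat2, Neurod2 and Etv1 were at 141, 137 and 105. From Cadps2 at 83.0 through Tiam1, Mab21l1 and Il16 to Sez6 at 61.3, each gene overlapped its neighbour in the order. A second run of overlapping neighbours went from Zic5 at 43.0 through Barhl2, Jdp2, Reln, Nfib, Uncx and Nfia to Pax6 at 24.1. Zic4, Meis1 and Barhl1 were at 14.6, 14.4 and 13.3, and Meis2 and Nhlh1 closed the order. Of the 30 neighbouring pairs, 18 had overlapping libraries and 12 did not. With the length of the longest transcript in place of all exons, the order had a Spearman correlation of 0.971 across the 31 genes with the first, which shares the same counts, and no gene moved by more than 6 places.

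**Figure D4:**
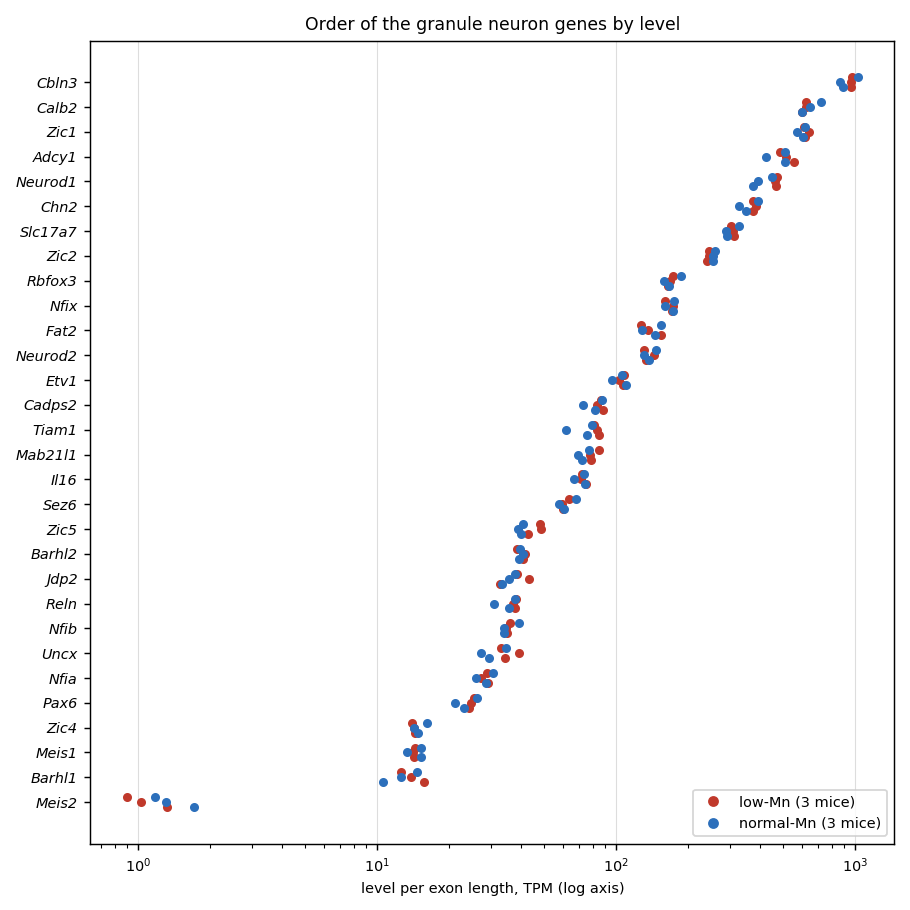
Level of each gene per exon length in TPM, on a log axis, with 1 point per library and the genes ordered from the highest mean, without Nhlh1. The levels span from about 944 for Cbln3 to 1.24 for Meis2, and the points of both diets overlap for most genes.

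Genes of other stages and of the same pathways were read from lists in the same edgeR test. Of the precursor stage and its hedgehog signaling, none of 15 tested genes passed, the median log2 fold change was -0.16 and 10 were below 0. Atoh1, the factor of dividing precursors, had 1 count in 1 library and 0 elsewhere, and Mki67, a gene of dividing cells, was at 0.237 TPM. The hedgehog co-receptor Boc came nearest to a call, with 84.9, 78.4 and 69.9 CPM in low-Mn mice and 65.2, 66.6 and 63.9 in normal-Mn mice (0.25, adjusted p = 0.0757 from edgeR). The cyclin genes Ccnd1 and Ccnd2, which are not particular to granule cells, had -0.20 and -0.35 (adjusted p = 0.302 and 0.25 from edgeR). Of 13 genes of young migrating granule neurons none passed, with a median of -0.06.

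Of the 17 receptors and potassium channels of mature granule neurons, 1 rose, Kcnd2, which encodes an A-type potassium channel. Its CPM was 245, 232 and 249 in low-Mn mice and 219.7, 208 and 196 in normal-Mn mice (0.22, adjusted p = 0.0432 from edgeR), and the call was lost without any library other than normal-Mn replicate 1 and with upper quartile scaling (adjusted p up to 0.185). The median of the 17 was 0.02, and Gabra6 was at 635.8 CPM in low-Mn mice and 636.8 in normal-Mn mice. Of 15 genes that act with granule neuron proteins at the parallel fiber synapse, 1 rose, the presynaptic receptor Nrxn3 (0.21, adjusted p = 0.028 from edgeR), which lost its call without any 1 library (up to 0.112). Cbln1, the partner of Cbln3 that links parallel fibers to the glutamate receptor delta 2, was at 818 ± 31 and 858 ± 29.6 CPM (SD, n = 3 mice per diet), with a log2 fold change of -0.07. The median of these 15 was -0.01. Over all genes tested in edgeR 0.595% passed.

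Downstream of Reln, none of 10 genes passed and the median was 0.01. The receptors Lrp8 and Vldlr had log2 fold changes of 0.10 and -0.02 and the adaptor Dab1 had 0.11. Of 10 partners and inhibitors of bHLH factors none passed, with a median of -0.03. Hes1, a repressor of neuronal differentiation made in glia and precursors, was at 4.94, 4.40 and 4.19 CPM in low-Mn mice and at 6.51, 7.62 and 8.83 in normal-Mn mice (-0.76, adjusted p = 0.0518 from edgeR). The inhibitor Id4 had -0.10 (adjusted p = 0.404 from edgeR). Of 24 family relatives of the granule neuron genes none passed and the median was -0.01. Rbfox1 was nearest, at 0.19 (adjusted p = 0.117 from edgeR), and Tiam2 had 0.35 (adjusted p = 0.304 from edgeR) from a level of 2.46 TPM.

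Markers of other cells were read from the same libraries, and their part in the granule neuron values was not tested. The share called over all genes tested in edgeR was 0.595%. Purkinje cell genes had a median log2 fold change of 0.02 with none of 15 called, unipolar brush cells 0.02 with none of 7 and interneurons -0.10 with none of 12. The summed CPM of 15 oligodendrocyte genes was 7668 to 7995 in low-Mn mice and 8215 to 9079 in normal-Mn mice, and Gjc3 was lower (adjusted p = 0.0403 from edgeR). That of 14 astrocyte genes was 7504 to 7664 against 7927 to 8267, with none called, and that of 12 microglia genes 189 to 198 against 209.3 to 216, with none called. Choroid plexus and ependyma genes had a median of -0.37, with 4 of 15 lower (Kl, Ace, Mfrp and Sostdc1) and sums of 2402 to 2958 against 2783 to 3374. Genes of meninges and fibroblasts had -0.21, with 2 of 15 lower (Fn1 and Igf2) and sums of 399.9 to 468 against 492 to 549. Nuclear retained transcripts summed to 6107 to 6307 against 5162 to 5511, with 1 of 8 higher (Meg3, adjusted p = 0.000299 from edgeR). Meg3 alone was at 2295 CPM in low-Mn mice and 1791 in normal-Mn mice, and Neat1 was lower in every low-Mn library (126 to 136 CPM against 139 to 157) without passing (adjusted p = 0.202 from edgeR). Of the genes named here as higher or lower, Kl and Meg3 kept their calls without any 1 library. The other 6 each lost theirs without low-Mn replicate 2 (adjusted p from 0.0695 to 0.171 in edgeR) and, apart from Ace and Fn1, without at least 1 other library as well. Gjc3, Igf2 and Sostdc1 also did not pass in limma-voom (adjusted p = 0.0548, 0.059 and 0.0566). In DESeq2 Sostdc1 had no adjusted p at default settings and 0.0641 without independent filtering. None of 12 endothelial, 5 red blood cell and 13 mitochondrially encoded genes passed, with medians of 0.07, 0.18 and -0.01. None of the listed markers was at 0 in all libraries.

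**Figure D5:**
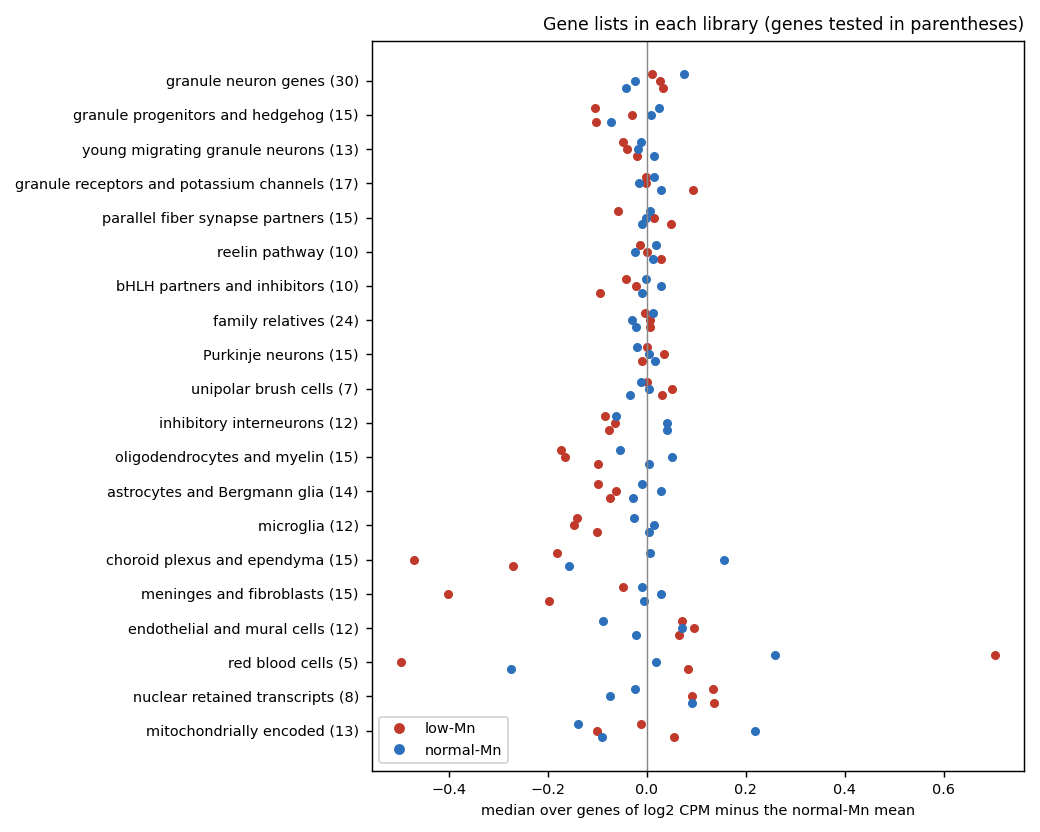
Each point is 1 library and gives the median over the tested genes of a list of the log2 CPM difference from the normal-Mn mean, with low-Mn in red, normal-Mn in blue and the number of genes in parentheses. The granule neuron genes lie between -0.043 and 0.076 in every library, while the list of choroid plexus and ependyma and that of red blood cells spread most.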

How the data were processed

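Poly(A) libraries of whole cerebellum were sequenced on the NovaSeq platform, 3 per diet. The authors mapped reads with STAR, and the submitters' processing notes also name RSEM, FastQC, DESeq2 and mm10, but no versions, and no source used here gives the strand setting of counting. What the authors deposited were expected counts for each gene, in which RSEM shares a read among the genes it fits, without normalization. Library totals ran from 14548336 to 21277469. The labels name a directional kit and the methods a kit that is not directional. Low-Mn columns are named by number alone and were assigned to the labels' low-Mn replicates of the same number, because the other columns are named as normal-Mn. The 92 spike-in entries were 0 and left out.

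Expected counts were rounded and tested with edgeR 4.0.16 in R 4.3.3 (glmQLFit, glmQLFTest, TMM factors from 0.9885 to 1.008, filterByExpr with a minimum count of 10), and p-values were adjusted by Benjamini-Hochberg over 16123 genes, with calls at 0.05. Of the 31 genes, 30 passed the filter on low counts. Alternatives were RLE and upper quartile scaling, no filter and a mean of at least 100 counts, counts left unrounded, limma-voom (limma 3.58.1), DESeq2 1.42.0 with and without independent filtering, a replicate block, removal of a length and GC trend, and each library left out. The code was tested on simulated counts. Levels used exon lengths of GENCODE M21, and sharing was the percent of a gene's exonic 50-base stretches found in another gene. Genes named are all 31, and from each other list those that passed and up to 4 with the smallest p. Gabra6, Pcp2, Calb1, Atoh1, Mki67, Cbln1, Vldlr and Dab1 were added. Results of 2 genes of the other lists are not reported here. The genes and lists were chosen with earlier results of these data known.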

Additional observations from a re-analysis of the deposited data

How the results depend on the processing

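Over all genes 96 passed in edgeR (67 higher and 29 lower, and 53 and 37 of 90 with upper quartile scaling). The count became 424 when genes of low count were kept, 63 in limma-voom and 164 with a length and GC trend removed. It was 137 and 93 with DESeq2 with and without independent filtering, and 37 to 93 when 1 library was left out. The fit with no filter treated the spread between mice as known, which made its p-values smaller at like changes. Of the granule neuron genes 0 passed, and this became 2 with no filter (Neurod1 and Tiam1, adjusted p = 0.012 and 0.0184 from edgeR), 1 with DESeq2 at default settings (Neurod1, adjusted p = 0.0387), and 0 to 1 when 1 library was left out, the 1 being Neurod1 without normal-Mn replicate 1. Their median log2 fold change stayed between -0.0028 and 0.035 when 1 library was left out.

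Same-numbered low-Mn and normal-Mn libraries had correlations of 0.0297, -0.0238 and 0.0361 between their deviations from the diet means, so the numbers were not taken as pairs. With the replicate block 128 genes passed (0.794% of all genes) and 0 of the granule neuron genes. With the replicate block and the length and GC trend removed together, 189 genes passed (1.17% of all genes). Among them were 2 of the granule neuron genes (Neurod1 and Tiam1, adjusted p = 0.0316 and 0.0348 from edgeR).

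Of 509 values of single granule neuron genes under 17 alternatives, 481 kept the sign of the reported value, and 28 in 12 genes took the other sign with neither value past the threshold. The reported size in those 12 genes was at most 0.0751 on the log2 scale. The cause of these shifts was not tested. Counts per library were lowest for Nhlh1, Meis2 (52 to 109) and Barhl1 (220 to 351), and counting error was not separated from the spread between mice.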
